A study of Mus musculus with 8 samples.

Results

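The alpha and beta crystallins measured here were 8 genes, Cryaa, Cryab, Cryba1, Cryba2, Cryba4, Crybb1, Crybb2 and Crybb3, out of 31053 gene identifiers counted in every library. They were chosen by gene symbol, with the levels of these genes in the Bbs8-/- against Bbs8+/+ comparison already known, so their difference between the genotypes is given as a description and without a test. Of the 8, Cryab is expressed in many tissues, and the other 7 are called the lens crystallins here because the lens is where they are known to be abundant.

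Transcripts were counted by QuantSeq, a method that sequences a short tag close to the poly-A tail of each mRNA, in eyecups of retinal pigment epithelium (RPE), the pigmented layer under the photoreceptors, of C57/Bl6 mice at postnatal day 11 (P11). Each of 4 wild-type libraries (Bbs8+/+) and 4 libraries from mice lacking the ciliary gene Bbs8 (Bbs8-/-) was described in the labels as a biological replicate, and no treatment was given. The knockout was carried by the whole animal rather than by the RPE alone, so the retina and other eye tissues of these mice also lacked Bbs8, and the sex of the animals was not in the labels. Per the study's methods, RNA was extracted from whole eyecups after the optic nerve, retina, lens and cornea had been taken off, which leaves the choroid and sclera with the RPE. In such bulk samples, more cells of a type and more RNA per cell cannot be told apart.

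The libraries held 1636725 to 2884983 gene counts each, with 15209 to 15637 genes detected. Levels are in CPM, counts scaled to a common library total. All CPM were TMM-scaled, with factors between 0.983 and 1.02, on which scale 3 counts corresponded to 1.05 to 1.82 CPM, and fold changes are Bbs8-/- over Bbs8+/+. The targeted gene, annotated as Ttc8, had 34, 50, 39 and 62 counts in Bbs8+/+ and 16, 7, 5 and 9 in Bbs8-/-, which gave a log2 value of -1.95 (standard error, SE, 0.317, edgeR FDR 2.75e-06). Of 13813 genes tested with edgeR, 152 were up-regulated and 157 down-regulated at FDR 0.05, and the median log2 fold change of all tested genes was -0.0041. The 14 genes of an RPE list summed to 31485 to 32204 CPM in Bbs8+/+ and 30271 to 31075 CPM in Bbs8-/-, with Ttr and Dct the largest contributors, while Best1 had a mean of 0.741 CPM in Bbs8+/+ and 2.18 CPM in Bbs8-/-. A skeletal muscle list of 16 genes also summed to 3506 to 3765 CPM in Bbs8+/+ and 3895 to 4273 CPM in Bbs8-/-, so muscle RNA was present in all 8 libraries.

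Crystallins are the soluble proteins that fill the fibre cells of the lens and give it its refractive power. The alpha crystallins, encoded by Cryaa and Cryab, are small heat shock proteins, chaperones that hold unfolding proteins in solution, and Cryab is also made in heart, skeletal muscle, glia and RPE. The beta crystallins form a separate structural family of acidic (Cryba) and basic (Crybb) subunits that assemble with each other, share their fold with the gamma crystallins and are not chaperones. Transcription of crystallin genes in the lens is known to depend on Maf, Pax6 and Sox family factors, and Maf proteins bind a recognition element with the arm TGCTGA.

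In the mouse mm10 assembly, the 8 genes lie on 5 chromosomes. Cryaa is at chr17:31677807-31681733 on the plus strand and Cryab at chr9:50751325-50756636 on the plus strand. Cryba1 is at chr11:77718615-77725283 and Cryba2 at chr1:74889934-74893143, both on the minus strand. The other 4 lie on chromosome 5, where Cryba4 (chr5:112246493-112252518, minus strand) and Crybb1 (chr5:112255815-112269585, plus strand) are transcribed away from each other from starts 3296 bases apart. Crybb2 (chr5:113058258-113070117) and Crybb3 (chr5:113075839-113081584) follow each other on the minus strand with 5721 bases between them. The longest exact run shared by annotated transcripts of any of the 28 pairs of members was 22 bases, in Cryaa and Cryab, against a read length of 100 bases, so the genes are not near-identical copies that would share reads.

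Promoter stretches are printed here because 6 of the 7 lens crystallins were higher together in Bbs8-/-. RefSeq promoters (GRCm38.p6) matched 7 of the 8 genes, all but Cryab. The stretches run from base -150 to base -11 before the RefSeq gene start, on the strand of the gene, at chr11:77725304-77725443 for Cryba1, chr5:112252529-112252668 for Cryba4, chr5:112255670-112255809 for Crybb1, chr5:113070128-113070267 for Crybb2 and chr5:113081595-113081734 for Crybb3. Capitals mark the Maf arm TGCTGA or its reverse complement TCAGCA.
Cryba1: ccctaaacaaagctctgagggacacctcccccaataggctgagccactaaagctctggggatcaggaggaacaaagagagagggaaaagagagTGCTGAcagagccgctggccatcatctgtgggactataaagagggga
Cryba4: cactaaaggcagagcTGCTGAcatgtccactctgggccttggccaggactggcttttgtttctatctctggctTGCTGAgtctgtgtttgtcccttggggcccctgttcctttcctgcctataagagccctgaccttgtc
Crybb1: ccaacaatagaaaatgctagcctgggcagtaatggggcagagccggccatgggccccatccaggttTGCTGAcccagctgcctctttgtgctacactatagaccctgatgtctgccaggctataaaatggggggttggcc
Crybb2: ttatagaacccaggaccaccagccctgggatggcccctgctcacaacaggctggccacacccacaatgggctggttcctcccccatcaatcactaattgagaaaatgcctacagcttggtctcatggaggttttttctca
Crybb3: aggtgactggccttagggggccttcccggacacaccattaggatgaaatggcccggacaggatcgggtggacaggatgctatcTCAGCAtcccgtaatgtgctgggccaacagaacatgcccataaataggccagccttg

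Within 250 bases before the gene start, searched on both strands, TGCTGA was present in 6 of the 7 genes, Cryaa, Cryba1, Cryba2, Cryba4, Crybb1 and Crybb3, and in 16.1% of the 32851 RefSeq promoters searched in the same way. Cryba4 held 3 copies, at bases -182 to -177, -135 to -130 and -77 to -72, of which the first lies outside the printed stretch. The copy nearest to a start was that of Cryba1 at bases -57 to -52. It was followed by Crybb3 at -67 to -62 on the opposite strand, the nearest copy of Cryba4 at -77 to -72 and Crybb1 at -84 to -79. Cryaa held it at -108 to -103, and Cryba2 at -149 to -144 on the opposite strand. The TATA box letters TATAAA were present in 2 of the 7, at -23 to -18 in Cryba1 and -30 to -25 in Crybb1, and in 12.4% of all promoters. ATTGTT, the core bound by Sox proteins, was found in 1 of the 7, at -148 to -143 in Crybb1 on the opposite strand, and in 9.42% of all promoters. The heat shock element core GAANNTTC was found in 0 of the 7 and in 6.69% of all promoters. No match overlapped another. These matches are letters in a window and not measured binding sites.

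**Figure D1:**
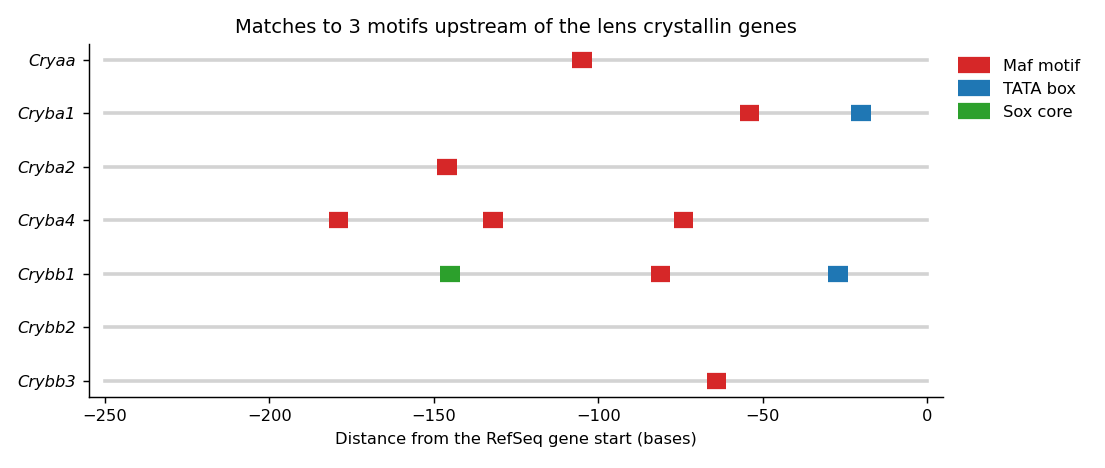
Positions of 3 motifs in the 250 bases before the RefSeq gene start of the 7 lens crystallins, with distance from the start in bases on the horizontal axis and a grey line for each window searched. Maf motif matches (red) lie in 6 of the 7 windows, 3 of them in Cryba4, and the window of Crybb2 holds no match to any of the 3 motifs.

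In Bbs8-/- eyecups, 6 of the 7 lens crystallins, Cryaa, Cryba1, Cryba2, Cryba4, Crybb1 and Crybb3, were higher in all 4 libraries than in any Bbs8+/+ library. Their log2 fold changes lay between 1.44 for Crybb3 and 3.74 for Crybb1. Crybb2 was near the limit of detection in both genotypes, with libraries that overlapped. Cryab had the highest counts of the 8 in both genotypes and differed little, with a log2 fold change of -0.15 (SE 0.0872). The same 6 members passed FDR 0.05, all upward, where 1.1% of all tested genes were called higher and 2.24% were called in either direction. No overlap in the upward direction was seen for 3.62% of all tested genes. The comparison that chose the members gave these counts, so nothing is read from them. All 8 members passed the filter of 1 CPM in 4 libraries, but Cryba4 and Crybb1 had only 1 and 2 Bbs8+/+ libraries at that level and passed through the Bbs8-/- libraries. Crybb2 passed with 3 Bbs8-/- libraries and 1 Bbs8+/+ library.

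**Figure D2:**
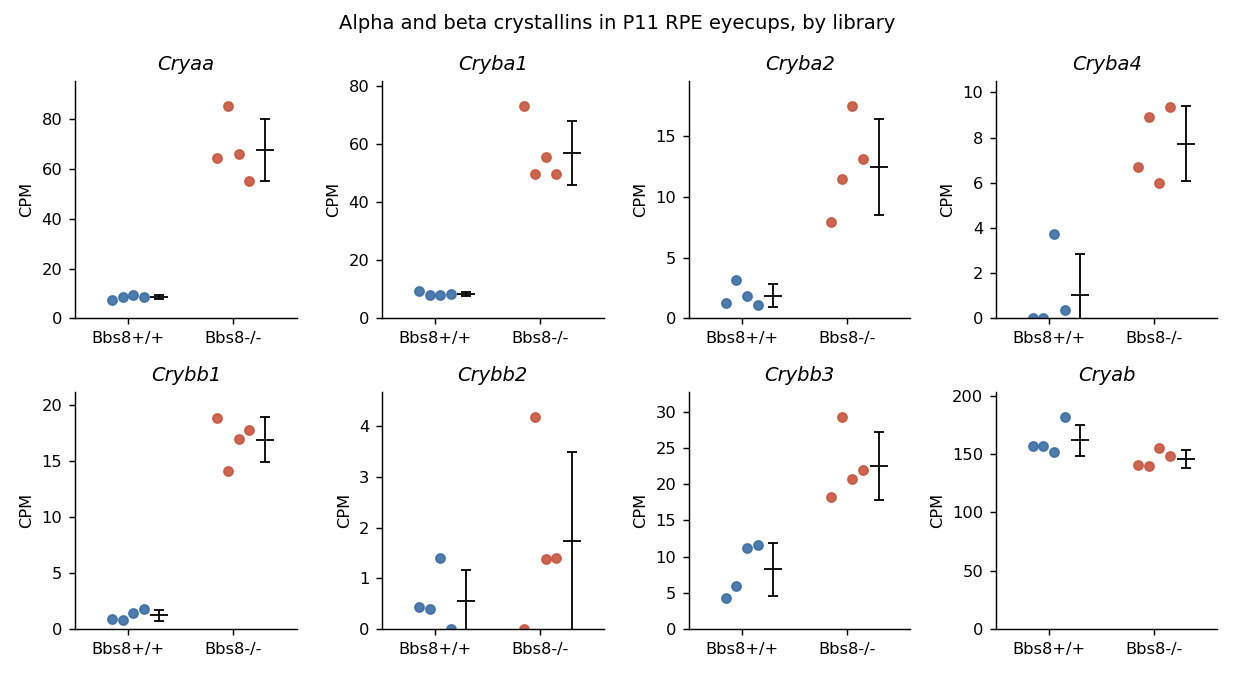
Level of each member in CPM (vertical axes start at 0 and differ between panels) in the 4 Bbs8+/+ (blue) and 4 Bbs8-/- (red) libraries, in the order of replicates 1 to 4, with the mean and SD of each genotype in black, cut at 0 where the SD reaches below it. The genotypes do not overlap for 6 lens crystallins and overlap for Crybb2 and Cryab.

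Cryaa (ENSMUSG00000024041) encodes the alpha A subunit, which is made almost entirely in the lens. In Bbs8+/+ replicates 1 to 4 it was measured at 7.34, 8.66, 9.36 and 8.39 CPM, from 17 to 24 counts per library, and in Bbs8-/- replicates 1 to 4 at 64.4, 85.2, 66.1 and 55.2 CPM, from 106 to 163 counts. The lowest knockout library was thus far above the highest wild-type library. The means were 8.44 ± 0.839 and 67.7 ± 12.6 CPM (SD, n = 4 each), 8.03-fold higher in Bbs8-/-, with a log2 fold change of 3.00 (SE 0.192). An antisense gene that was not in the counted set, AC090881.2, overlaps 273 exonic bases of Cryaa, and its reads could not be told apart from those of Cryaa if strand was not used in counting.

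Cryab (ENSMUSG00000032060), the alpha B subunit, is the member also expressed outside the lens as a stress-related chaperone. It was measured at 157, 157, 152 and 182 CPM in Bbs8+/+ and at 140, 140, 155 and 148 CPM in Bbs8-/-, from 231 to 520 counts per library. The highest knockout library, replicate 3, lay above 1 of the wild-type libraries, also replicate 3, so the genotypes overlapped. The means were 162 ± 13.6 and 146 ± 7.38 CPM (SD, n = 4 each), a ratio of 0.902. Over all alternatives, including leaving out each library in turn, its log2 fold change stayed between -0.18 and -0.09. Hspb2, another small heat shock gene, runs on the opposite strand and overlaps Cryab by 252 exonic bases, but it was itself low, at 5.31 ± 2.90 CPM in Bbs8+/+ and 4.86 ± 3.07 CPM in Bbs8-/- (log2 fold change -0.16, edgeR FDR 0.936).

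Among the acidic beta crystallins, Cryba1 (ENSMUSG00000000724) was the most abundant in both genotypes. This gene is known from the lens and also from astrocytes and RPE, where its product has been tied to lysosomes. Bbs8+/+ libraries held it at 9.49, 7.88, 7.95 and 8.39 CPM and Bbs8-/- libraries at 72.9, 49.7, 55.6 and 49.6 CPM. Replicate 1 was the highest of each genotype, and the genotypes were separated by a wide gap. The means were 8.43 ± 0.746 and 56.9 ± 11.0 CPM (SD, n = 4 each), with a log2 fold change of 2.74 (SE 0.202). Cryba1 lies within the bounds of the gene Nufip2 on the opposite strand, with which it shares 0 exonic bases.

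Cryba2 (ENSMUSG00000006546), a less abundant acidic subunit, was at 1.29, 3.15, 1.87 and 1.05 CPM in Bbs8+/+, from 3 to 8 counts per library. In Bbs8-/- it was at 7.90, 11.5, 17.5 and 13.1 CPM, from 13 to 38 counts, all above the highest wild-type library. The log2 fold change was 2.75 (SE 0.430), close to that of Cryba1 but with a wider error that goes with its lower counts. For Cryba4 (ENSMUSG00000066975), the remaining acidic subunit, the counts were 0, 0, 8 and 1 in Bbs8+/+ and 11, 17, 13 and 20 in Bbs8-/-. Its levels were 0, 0, 3.74 and 0.350 CPM against 6.68, 8.89, 5.97 and 9.35 CPM, so Bbs8+/+ replicate 3 alone carried most of the wild-type reads. A count of 0 allowed up to 1.29 CPM in Bbs8+/+ replicate 1 and 1.18 CPM in replicate 2. The log2 fold change of 2.97 (SE 0.614) became 5.40 without Bbs8+/+ replicate 3, and 3.74 CPM in that library was still below every knockout library.

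The basic subunit Crybb1 (ENSMUSG00000029343), whose start faces that of Cryba4, had the largest fitted fold change of the 8 when all libraries were used, a rank that passed to Cryba4 without Bbs8+/+ replicate 3 (log2 values of 3.80 and 5.40). It was counted 2, 2, 3 and 5 times in Bbs8+/+ and 31, 27, 37 and 38 times in Bbs8-/-, which gave 0.863, 0.788, 1.40 and 1.75 CPM against 18.8, 14.1, 17.0 and 17.8 CPM. All wild-type libraries were at or near the level of 3 counts, and the knockout libraries lay within a narrow range. The log2 fold change was 3.74 (SE 0.418), and it lay between 3.58 and 4.00 when single libraries were left out. Crybb3 (ENSMUSG00000029352) varied more within Bbs8+/+, with 4.32, 5.91, 11.2 and 11.5 CPM, a spread larger than that of Cryaa or Cryba1 at the same mean level. In Bbs8-/- it was at 18.2, 29.3, 20.7 and 22.0 CPM, again without overlap. Its means of 8.25 ± 3.68 and 22.5 ± 4.76 CPM (SD, n = 4 each) gave the smallest fold change of the 6 members whose libraries did not overlap, a log2 value of 1.44 (SE 0.266).

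Crybb2 (ENSMUSG00000042240) encodes the main basic beta crystallin of the mature lens. It was barely detected, with 1, 1, 3 and 0 counts in Bbs8+/+ and 0, 8, 3 and 3 counts in Bbs8-/-. The levels were 0.432, 0.394, 1.40 and 0 CPM against 0, 4.18, 1.38 and 1.40 CPM, and the libraries at 0 allowed up to 1.05 and 1.82 CPM. The fitted log2 fold change was 1.67 with an SE of 0.960, and a difference was not detectable at this depth. Its printed promoter stretch holds no capitals. With so few counts, this cannot be set beside a difference in level or the lack of one, and a link was not tested.

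With all libraries used, between Crybb1 and Crybb3, the highest and lowest of the 6 fold changes, lay Cryaa, Cryba1, Cryba2 and Cryba4 at 2.74 to 3.00 on the log2 scale. The place of Cryba4 in this order rests on Bbs8+/+ replicate 3, without which its value was 5.40, above that of Crybb1. The median over the 7 lens crystallins was 2.75, beside a median of -0.0041 over all tested genes.

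Summed over the 7 lens crystallins, the levels were 23.7, 26.8, 37.0 and 31.5 CPM in Bbs8+/+ against 189, 203, 184 and 168 CPM in Bbs8-/-. These sums rested on 55, 68, 79 and 90 counts and on 311, 388, 401 and 360 counts. The group means of 29.7 ± 5.77 and 186 ± 14.2 CPM (SD, n = 4 each) gave a ratio of 6.26, without overlap. The coefficient of variation was 19.4% in Bbs8+/+ and 7.65% in Bbs8-/-, where counting error alone gives 11.7 and 5.23%. Because a QuantSeq read marks a transcript's 3′ end, counts of different genes were compared here per transcript, without division by length. On this count scale, Cryab exceeded the 7 lens crystallins together in every Bbs8+/+ library, by 6.62, 5.85, 4.10 and 5.78 counts of Cryab per lens crystallin count. In Bbs8-/- the ratio was below 1 in every library, at 0.743, 0.688, 0.843 and 0.881. The means of this ratio were 5.59 ± 1.06 and 0.789 ± 0.0887 (SD, n = 4 each), and the genotypes did not overlap.

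**Figure D3:**
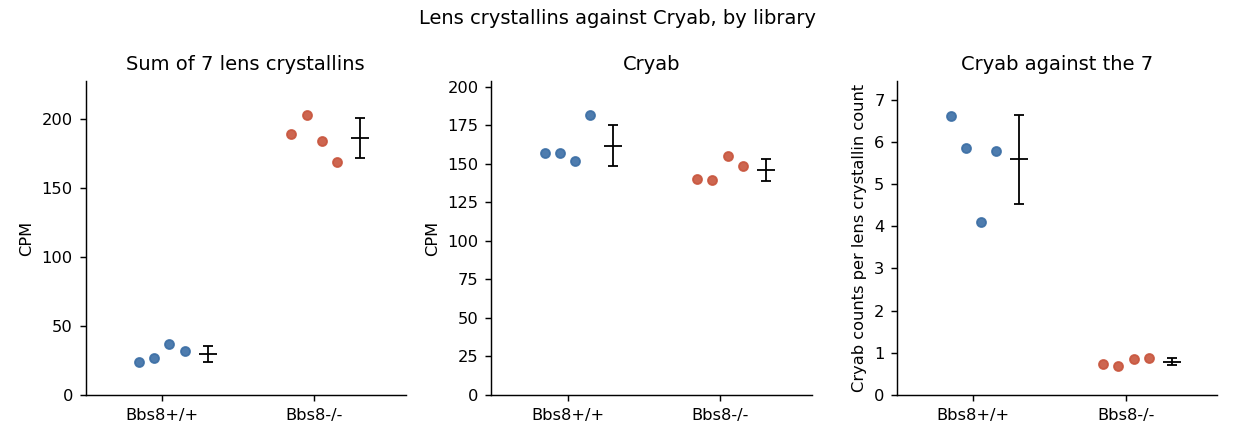
Summed CPM of the 7 lens crystallins (left), CPM of Cryab (middle) and Cryab counts per lens crystallin count (right) in 4 Bbs8+/+ (blue) and 4 Bbs8-/- (red) libraries, with mean and SD in black. The sum is 168 to 203 CPM in Bbs8-/- and at most 37.0 CPM in Bbs8+/+, while Cryab overlaps between the genotypes and the ratio is below 1 in every Bbs8-/- library.

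Of the counts of all 8 genes, Cryab made up 84.5 ± 2.82% in the Bbs8+/+ libraries against 44.0 ± 2.79% in the Bbs8-/- libraries (SD, n = 4 each). Together the 8 reached 192 ± 14.8 CPM in Bbs8+/+ and 332 ± 11.7 CPM in Bbs8-/-. By family, the 2 alpha crystallins summed to 170 ± 13.4 and 214 ± 11.1 CPM, and the 6 beta crystallins to 21.3 ± 5.07 and 118 ± 4.67 CPM (SD, n = 4 each). The smaller relative difference in the alpha family thus came from Cryab, which dominated that sum in both genotypes.

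The division of lens crystallin counts among the 7 genes also differed between the genotypes. Crybb3 held 18.2, 22.1, 30.4 and 36.7% of them in the Bbs8+/+ libraries and 9.65, 14.4, 11.2 and 13.1% in the Bbs8-/- libraries, so that its share was lower in each knockout library than in any wild-type library. Crybb1 moved the other way, from 2.94 to 5.56% in Bbs8+/+ to 6.96 to 10.6% in Bbs8-/-. The share of Cryaa was 25.3 to 32.4% in Bbs8+/+ and 32.8 to 42.0% in Bbs8-/-, and that of Cryba1 was 21.5 to 40.0% and 24.5 to 38.6%. Cryaa was thus separated by a small gap and Cryba1 overlapped fully. Pooled over libraries, the 292 Bbs8+/+ counts were divided nearly evenly between Cryaa, Cryba1 and Crybb3 at 28.4, 28.4 and 28.1%. In the 1460 Bbs8-/- counts the same 3 genes held 36.4, 30.3 and 12.2%. These shares use the values that chose the members and are given without a test.

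**Figure D4:**
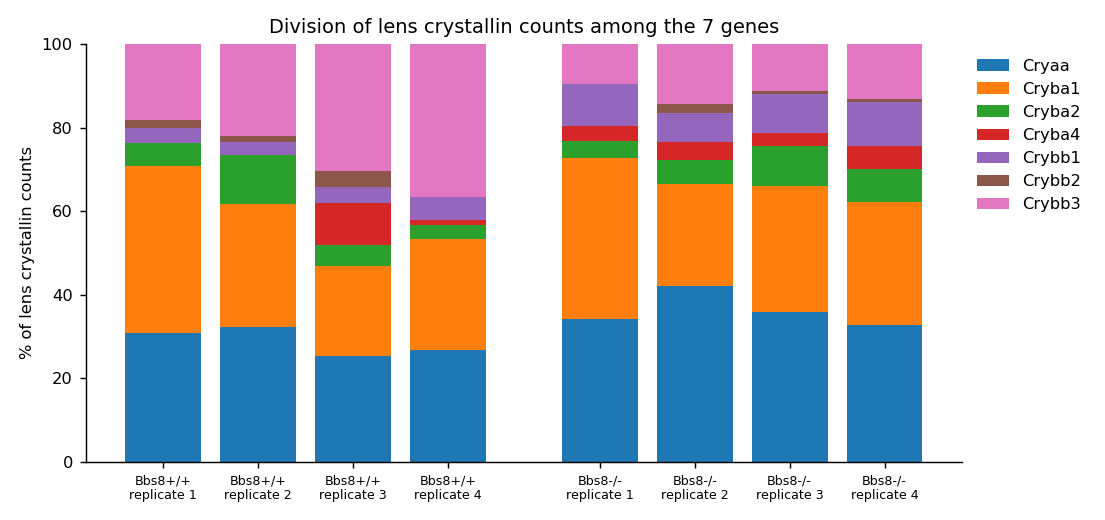
Share of the lens crystallin counts of each library that fell to each of the 7 genes, in percent, with 1 bar per library. The share of Crybb3 (pink) is 18.2 to 36.7% in Bbs8+/+ and 9.65 to 14.4% in Bbs8-/-, and the share of Crybb1 (purple) is at most 5.56% in Bbs8+/+ and at least 6.96% in Bbs8-/-.

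Variation among libraries of the same genotype, which the choice of members did not use, was measured as the chi-square index of the counts, whose value under counting error alone is 1. In Bbs8+/+, Cryaa and Cryba1 varied less than counting error, with indices of 0.188 and 0.154, while Crybb3 reached 3.99. In Bbs8-/- the order was turned, with 4.68 for Cryaa, 3.77 for Cryba1 and 1.86 for Crybb3. Genes of 50 to 200 counts in Bbs8+/+ had a median index of 1.82, with 80% of them between 0.448 and 5.12, and genes of 200 to 600 counts in Bbs8-/- had a median of 1.53, with 80% between 0.376 and 3.96. Cryaa in Bbs8-/- therefore varied more, and Cryaa and Cryba1 in Bbs8+/+ less, than 9 in 10 genes of similar counts. Cryab had an index of 3.01 in Bbs8+/+, where replicate 4 was the highest, and of 0.743 in Bbs8-/-. Cryba4 had the highest index of the members, 8.05 in Bbs8+/+, from the single library with 8 counts.

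Within genotypes, pairs of members showed correlations of either sign from library to library. Over the 8 libraries, the Pearson correlation of deviations from the genotype mean on the log2 scale was -0.30 for Cryaa with Cryba1, 0.57 for Cryaa with Crybb3 and -0.50 for Cryba1 with Crybb3. Cryab had a correlation of -0.08 with the summed lens crystallins. These values rest on 8 libraries and on few wild-type counts, and are descriptions only. The genes whose deviations were most like those of the summed lens crystallins, among 6625 other genes with a mean of at least 20 CPM, were Atp5l (0.97), Fasn (0.97), Rpl7l1 (0.96), Phactr3 (0.95) and Urod (0.95). For Cryab they were Manf (0.97), Cnot2 (0.97), Tacc1 (0.96), Cacna1c (0.95) and Mxd4 (0.94). With so many genes and 8 libraries, 1% of all genes had a correlation of at least 0.82 with either pattern. The log2 fold changes of these 10 genes ran from -0.43 for Manf (edgeR FDR 0.148) to 0.44 for Atp5l (edgeR FDR 0.372).

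Genes related to the members were taken from lists written with earlier results of these data known. The gamma crystallins, the third structural family of the lens, were higher in Bbs8-/- for 7 of 8 genes at FDR 0.05, beside the 1.1% of all tested genes called higher, with a median log2 fold change of 3.94. They summed to 17.7 to 27.6 CPM in Bbs8+/+ and 289 to 329 CPM in Bbs8-/-. Some of them, among them Cryga and Crygf, had Bbs8+/+ libraries below 1 CPM and passed the filter through the Bbs8-/- libraries. The count of calls is therefore a description only. DESeq2 gave an adjusted p to 4 of the 8 and called these 4 higher. Crygn did not pass in edgeR, with a log2 fold change of 1.17 (edgeR FDR 0.334). In contrast, crystallin-named genes that encode enzymes or other proteins outside the lens families, such as Crym and Cryz, gave 0 calls among 7 tested, 0 at an unadjusted p under 0.05 and 0 with DESeq2 among the 4 to which it gave an adjusted p, with a median log2 fold change of 0.04. Their summed level of 169 to 199 CPM in Bbs8+/+ and 172 to 188 CPM in Bbs8-/- overlapped. How reads were divided between the near-identical gamma crystallin genes is uncertain.

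Lens fibre genes other than crystallins showed smaller differences. Of 12 such genes, 4 had enough counts to be tested and 0 passed FDR 0.05 in edgeR, with 1 at an unadjusted p under 0.05, and DESeq2 gave an adjusted p to 0 of them. All 4 had a positive log2 fold change, with a median of 0.35, and the libraries of Bfsp2 did not overlap. Mip, the water channel of the fibre cell membrane, was at 8.53 ± 2.08 CPM in Bbs8+/+ and 10.5 ± 3.41 CPM in Bbs8-/- (log2 fold change 0.30, SE 0.321, FDR 0.776). The beaded filament genes Bfsp1 and Bfsp2 were at 7.42 ± 3.95 and 7.66 ± 0.628 CPM in Bbs8+/+ and at 14.0 ± 4.19 and 9.46 ± 0.698 CPM in Bbs8-/-. Their log2 fold changes were 0.93 (FDR 0.102) and 0.30 (FDR 0.782), and Bfsp1 passed only without Bbs8+/+ replicate 1 (log2 fold change 1.33, FDR 0.0163). The membrane protein gene Lim2 had a log2 fold change of 0.40 (FDR 0.734). The connexin gene Gje1 had 0 counts in all 8 libraries, and Gja3, Lgsn, Birc7, Dnase2b, Grifin and Lenep had at most 5 counts in any library. All 12 together summed to 25.9 to 40.1 CPM in Bbs8+/+ and 37.7 to 46.3 CPM in Bbs8-/-, so the genotypes overlapped for this list where they were 6.26-fold apart for the 7 lens crystallins.

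Transcription and RNA regulators of the lens gave 0 calls among 12 tested of 16 listed, with 3 at an unadjusted p under 0.05 and a median log2 fold change of -0.07, and DESeq2 gave 0 calls among the 6 with an adjusted p. Maf, the factor that binds the TGCTGA element, was at 210 ± 6.12 CPM in Bbs8+/+ and 181 ± 23.3 CPM in Bbs8-/- (log2 fold change -0.21, FDR 0.198). Pax6 was at 9.92 ± 3.47 and 10.5 ± 4.51 CPM (log2 fold change 0.06, FDR 0.962), and its direction turned when some single libraries were left out. Hsf4, a heat shock factor needed in the lens, was at 2.25 ± 1.51 and 2.54 ± 2.30 CPM (log2 fold change 0.21, FDR 0.944). Foxe3, which marks the lens epithelium, had 0 counts in all libraries, and Gata3, Pitx3 and Sox1 were too low to be tested.

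**Figure D5:**
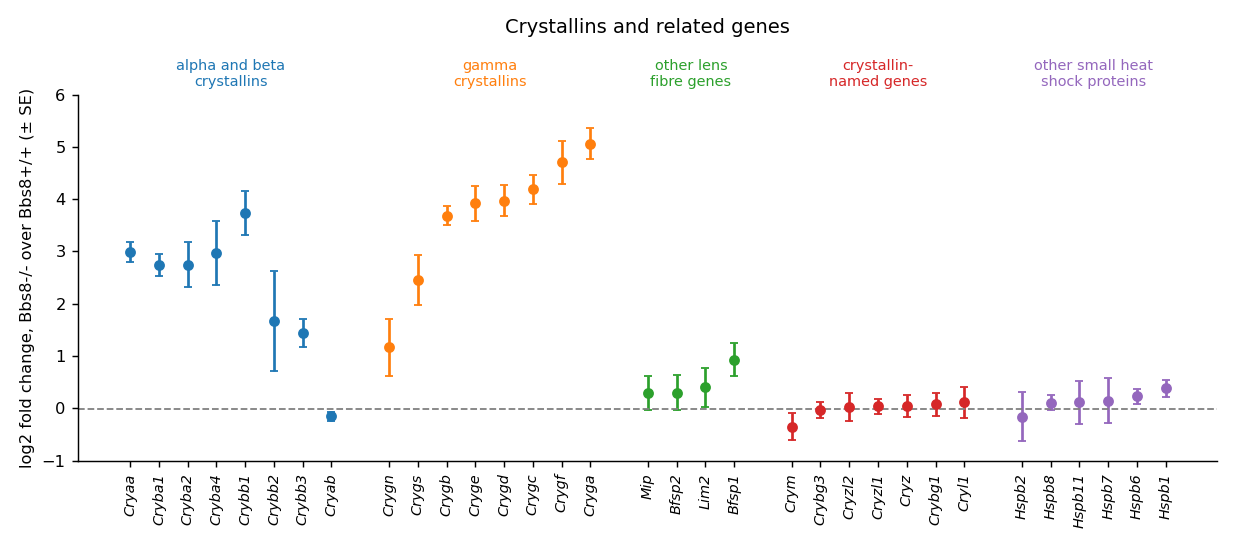
Log2 fold change of Bbs8-/- over Bbs8+/+ with its standard error for the 8 members, the gamma crystallins, the tested lens fibre genes, crystallin-named genes outside the lens families and other small heat shock proteins, with a dashed line at the median of all tested genes. The lens crystallins and gamma crystallins lie at 1.17 or above, and Cryab lies with the last 2 groups near the line.

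The other small heat shock proteins, the wider family of Cryaa and Cryab, gave 0 calls among 6 tested of 8 listed, with 1 at an unadjusted p under 0.05 and 0 with DESeq2 among the 3 to which it gave an adjusted p. Hspb1 was at 34.2 ± 6.79 CPM in Bbs8+/+ and 45.1 ± 9.61 CPM in Bbs8-/- (log2 fold change 0.38, SE 0.163, FDR 0.272). Hspb6 was at 42.0 ± 1.63 and 49.2 ± 3.67 CPM (log2 fold change 0.23, FDR 0.535), and Hspb8, a partner of Cryab, at 49.3 ± 5.79 and 53.1 ± 2.28 CPM (log2 fold change 0.11, FDR 0.822). The median of the list was 0.13, and it summed to 130 to 158 CPM in Bbs8+/+ and 158 to 175 CPM in Bbs8-/-. Among 14 heat shock response genes and co-chaperones, 1 passed upward, Hsp90ab1 with a log2 fold change of 0.18 (FDR 0.0100), and the median was -0.02. DESeq2, which gave an adjusted p to 11 of the 14, called Hsp90ab1 higher and Hspa5 lower, the latter with a log2 fold change of -0.16 and an FDR of 0.0591 in edgeR. The edgeR call of Hsp90ab1 was lost without Bbs8+/+ replicate 1, Bbs8+/+ replicate 4 or Bbs8-/- replicate 4 (FDR 0.0603, 0.0776 and 0.0717).

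Of 6 intermediate filament genes, whose proteins are known partners of the alpha crystallins, 1 passed FDR 0.05 upward and 1 downward. Gfap, the filament of reactive glia, was up-regulated from 2.62 ± 1.05 to 14.4 ± 2.04 CPM (log2 fold change 2.42, SE 0.380, FDR 1.01e-06). Nes had a log2 fold change of -0.61 (FDR 0.0187), a call lost when Bbs8+/+ replicate 1 or 4 or Bbs8-/- replicate 2 or 3 was left out (FDR 0.0603 to 0.137). Vim, a filament that both the lens and the RPE express, was at 514 ± 25.3 and 527 ± 28.9 CPM (log2 fold change 0.04, FDR 0.871).

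Genes around the members, leaving out the members themselves, were described in the same fit. The 14 tested genes other than members that overlap a member or lie nearest to it on either side gave 0 calls in edgeR, with 1 at an unadjusted p under 0.05, and 0 with DESeq2 among the 8 of them to which it gave an adjusted p. Their log2 fold changes lay between -0.34 and 0.76, with a median of 0.12. Tpst2, 7105 bases beyond Crybb1, had a log2 fold change of -0.19 (FDR 0.771), and 2900026A02Rik, 4738 bases from Crybb3, had 0.30 (FDR 0.305), the lowest FDR among the neighbours. Nufip2, around Cryba1, had a log2 fold change of 0.12 (SE 0.0724, FDR 0.529).

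Markers of other tissues that an eyecup can carry over also differed between the genotypes, and their part in the crystallin differences was not tested. Unique alignments lying in no annotated gene also separated the genotypes, making up 42.1 to 43.4% of all unique alignments in Bbs8+/+ and 44.1 to 44.4% in Bbs8-/-, and its part was likewise not tested. A list of 7 corneal and surface epithelium genes summed to 52.6 to 63.6 CPM in Bbs8+/+ and 26.6 to 37.7 CPM in Bbs8-/-, the opposite direction to the crystallins, with 3 of 4 tested genes down-regulated in edgeR, and DESeq2 gave 0 calls and an adjusted p to 1 of the 4. The 3 called keratins were low, with means of 2.14 to 5.73 CPM in Bbs8+/+, and passed the filter through the Bbs8+/+ libraries alone. They had no value when a Bbs8+/+ library was left out. The remaining tested gene, which did not pass (edgeR FDR 0.0805), made up most of the sum, at a mean of 43.1 CPM in Bbs8+/+ and 30.4 CPM in Bbs8-/-. Krt6a and Krt13 had 0 counts in every Bbs8-/- library and Krt14 in all 8 libraries. The call of Krt13 was lost when any 1 Bbs8-/- library was left out (FDR 0.0501 to 0.0661). Photoreceptor genes summed to 480 to 539 CPM in Bbs8+/+ and 389 to 470 CPM in Bbs8-/-, with 2 of 12 down-regulated, among them Gnat1 (-0.86 on the log2 scale), and 1 up-regulated, Nr2e3 (0.75), whose call was lost without Bbs8+/+ replicate 1 or Bbs8-/- replicate 3 (FDR 0.0951 and 0.149). Inner retina and Müller glia genes summed to 1243 to 1275 and 1218 to 1307 CPM, with 2 of 11 up-regulated, Thy1 and Slc6a9. The call of Thy1 was lost in 9 alternatives (FDR up to 0.232) and that of Slc6a9 without Bbs8+/+ replicate 2 (FDR 0.0671). Of the 16 muscle genes, a tissue that expresses Cryab, 3 were up-regulated and 0 down-regulated, Myh8 by 0.89, Neb by 0.40 and Tnnc2 by 0.30 on the log2 scale. DESeq2, which gave an adjusted p to 14 of the 16, called 4 higher, these 3 and Ttn, whose edgeR log2 fold change was 0.15 (FDR 0.0632). Of the 14 RPE genes, Otx2 was up-regulated (0.48) and 4 were down-regulated, Tyrp1 (-0.56), Mitf (-0.36), Dct (-0.25) and Pmel (-0.25). The rest of the list did not pass in edgeR, among them Ttr (0.09, edgeR FDR 0.0689). The median log2 fold change of the 14 was 0.03, and 8 of them were positive, so the 4 lower calls do not stand for the list as a whole.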

How the data were processed

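QuantSeq 3′ libraries of P11 RPE eyecups, 4 Bbs8+/+ and 4 Bbs8-/-, were analysed. The authors trimmed reads with BBDuk, aligned them with STAR to mm10 and counted unique alignments with htseq-count, and the deposited counts were not normalized. The strand setting was not given in the sources used here, and no molecular identifiers were named, so floors cover counting error only. Summary lines of the counter were left out, among them reads outside annotated genes (42.1 to 43.4% of uniquely aligned reads in Bbs8+/+ libraries and 44.1 to 44.4% in Bbs8-/- libraries). Symbols and positions came from GENCODE M21 (31011 of 31053 identifiers matched), and promoters from RefSeq GRCm38.p6. Protein sequences were not analysed here.

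Groups followed the genotype in the labels. A gene was tested where 4 or more libraries reached 1 CPM. The test was the two-sided quasi-likelihood F test of edgeR 4.0.16 (R 4.3.3) with TMM scaling and genotype as its factor, as the study's methods name edgeR and FDR 0.05. Benjamini-Hochberg adjustment covered all 13813 tested genes. SE values were obtained from the log2 fold change and the F statistic, as the former over the root of the latter. Counts were described within genotypes by a chi-square index over library sizes.

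The members and all lists were chosen with earlier results of these data known. Genes were named by this rule: the 8 members, Ttc8, Hspb1, Hspb2, Hspb6, Hspb8, Pax6, Maf and Hsf4, up to 4 genes past FDR 0.05 in each direction of a list, the 5 genes most like the lens crystallin sum and the 5 most like Cryab, and genes next to a member. Lens fibre genes, Crym, Cryz, Crygn, Vim, Ttr, Best1, Hspa5, Ttn and genes given as untested or at 0 were named outside that rule after their values were seen, and the gamma crystallins and keratins that met it are given mainly as sums and counts. Some listed genes are not reported here. Other settings tried were the DESeq2 1.42.0 test, RLE factors, library totals without factors, filterByExpr or no filter, the replicate number as a block, and each library left out in turn.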

Additional observations from a re-analysis of the deposited data

Results flagged for a closer look

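In 8 of 156 sets of 4 libraries examined, 1 library stood far from the other 3 by Dixon's criterion, where chance gives about 1 in 20, or 7.8 sets. Among the members these were Cryba4 in Bbs8+/+ replicate 3 (3.742 CPM, the others 0 to 0.3496) and the alpha crystallin sum in Bbs8+/+ replicate 4 (190.2 CPM, the others 160.9 to 165.4). Hspb6 was at 44.44 CPM in Bbs8+/+ replicate 3 and at 54.72 CPM in Bbs8-/- replicate 4, Hspb8 at 56.5 CPM in Bbs8-/- replicate 3 and the Cryaa neighbour U2af1 at 33.21 CPM in Bbs8+/+ replicate 3. Manf and Mxd4 were at 59.44 and 507.3 CPM in Bbs8+/+ replicate 4, the library in which Cryab was also highest, as follows from their choice by likeness to Cryab.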

How the results depend on the processing

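Under 14 alternatives, genes called higher numbered 114 to 173 and genes called lower 105 to 172, the single-library omissions giving 114 to 172 and 105 to 150. Calls in the lists numbered 20 to 27, against 26. The summed lens crystallins kept a log2 ratio of 2.55 to 2.77 (2.65 as reported, 10 alternatives), and Cryab -0.18 to -0.09. Ttc8 stayed between -2.44 and -1.70 in 13 alternatives, and DESeq2 gave it no adjusted p. The members past FDR 0.05, which were chosen on this contrast so that nothing is read from their number, were 6 in every edgeR alternative and 2, Cryaa and Cryba1, with DESeq2, which gave an adjusted p to only 3 members because its own filter on low means left the other 5 without one. Library omissions gave Cryba4 2.57 to 5.40 and Crybb1 3.58 to 4.00. Crybb2 had a value in 9 alternatives (1.23 to 2.04), since the filter removed it in the others. Replicate numbers were shared between genotypes but did not pair the libraries (correlations of same-numbered deviations -0.056 to 0.019). The replicate block gave 134 higher and 129 lower calls, 6 members, 25 calls in the lists, Ttc8 at -1.97 and Cryab at -0.15, and did not take away the call of any named gene other than Krt13 (FDR 0.0615). Of 65 other named genes, 23 passed FDR 0.05, of which 17 did so in every alternative with a value and 0 reversed. Of the 42 that did not pass, 9 reversed in at least 1 alternative and 4 came past it in at least 1, namely Bfsp1, Ttr (without Bbs8+/+ replicate 3, FDR 0.0132), Hspa5 (total counts only, FDR 0.0405, and DESeq2, 0.0127) and Ttn (filterByExpr, 0.0478, and DESeq2, 0.00835). Cacna1c reversed with total counts only (-0.0015) and ranged from -0.049 to 0.15 over library omissions. The omissions also turned Hspb2 (-0.63 to 0.14), Pax6 (-0.11 to 0.33), Hsf4 (-0.43 to 0.68), Rpl7l1 (-0.20 to 0.083), Cnot2 (-0.25 to 0.10), Tacc1 (-0.036 to 0.038), Cryz (-0.13 to 0.17) and Sik1 (-0.019 to 0.43), for which the cause was not tested. Depth limits Cryba2, Cryba4, Crybb1 and Crybb2, each with at most 8 counts in any Bbs8+/+ library.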
